A study of Mus musculus with 2 samples.

Results

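The early-activated cells described here are splenic CD8 T cells with the highest combined level of Egr1, Egr2, Egr3, Nr4a1, Nr4a3 and Tnfrsf9. They were chosen by that level: the UMIs (unique molecular identifiers, 1 per captured RNA molecule) of the 6 genes were summed in each cell and divided by the cell's total, and the highest 2% of CD8 T cells of both libraries pooled were taken. This gave 370 early-activated cells of 18512 CD8 T cells, 203 of 9849 in the DHEA library and 167 of 8663 in the CTRL library. A CD8 T cell here is a barcode with at least 1500 UMIs, at least 200 genes, under 10% mitochondrial UMIs, at least 1 UMI of Cd8a or Cd8b1 and at least 1 UMI of Cd3d, Cd3e or Cd3g. All other CD8 T cells, 9646 in DHEA and 8496 in CTRL, are called the other CD8 cells.

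The study profiled bead-isolated splenic CD8 T cells of C57BL/6 mice, labelled WT in genotype, by droplet single-cell RNA sequencing. The DHEA group had dehydroepiandrosterone, an androgen precursor used to model polycystic ovary syndrome in mice, injected under the skin at 40 mg/kg in 20 µL sesame oil each day for 21 days. The CTRL group had the same volume of sesame oil on the same schedule. Each group is 1 library, the cells are described as pooled, and neither the number of animals behind a library nor their age is stated in these sources.

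When a T cell receptor meets its ligand, calcium and mitogen-activated kinase signals switch on immediate early genes within minutes, without new protein synthesis. Among them are the zinc finger factors of the Egr family and the orphan nuclear receptors of the Nr4a family, and Nr4a1 reporters are widely used in mice to read recent receptor signalling. Tnfrsf9, the co-stimulatory receptor 4-1BB, appears later on activated CD8 T cells and passes survival signals through NF-kB.

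With 1 library per group there is no replicate, so differences were not tested, and all intervals are exact 95% intervals that cover counting error only. The libraries held 53020893 UMIs in 12128 barcodes (DHEA) and 51638782 UMIs in 9495 barcodes (CTRL). As chosen here, the early-activated cells were shallower than the other CD8 cells in both libraries. Their median was 3207 against 4886 UMIs in DHEA and 4764 against 5634 UMIs in CTRL. The choice divides by a cell's total, so a shallower cell needs fewer UMIs of the chosen genes to pass. When cells were chosen after thinning each to 1500 UMIs, median full depths were 4672 against 4855 in DHEA and 5674.5 against 5627 in CTRL. The median mitochondrial share of the early-activated cells was 2.07% in DHEA and 2.56% in CTRL, against 2.04% and 2.51% in the other CD8 cells. The libraries had 51 barcodes in common, and none of these (0) was an early-activated cell.

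The early-activated cells carried the T cell genes Cd8a and Cd3e at levels close to those of the other CD8 cells. All cells compared had to hold a UMI of Cd8a or Cd8b1 and of a Cd3 gene. Cd8a, a co-receptor chain, had 437 CPM (UMIs per 1000000 UMIs of the summed cells) in early-activated cells of DHEA and 401 CPM in those of CTRL, against 416 and 349 CPM in the other CD8 cells. Cd3e, a signalling chain of the receptor complex, stood at 716 and 707 CPM against 698 and 661 CPM. Cd8b1, the other co-receptor chain, differed with Tnfrsf9. Early-activated cells with a Tnfrsf9 UMI had 822 CPM of Cd8b1 in DHEA and 607 CPM in CTRL, and those without had 1181 and 1103 CPM. In the other CD8 cells Cd8b1 stood at 1263 and 1018 CPM. The helper cell genes Cd4 and Foxp3, the B cell gene Pax5 and the macrophage gene Adgre1 had no UMI (0) in the early-activated cells of either library. The whole list of 8 CD4 and regulatory T cell genes stood at 165 and 178 CPM, against 111 and 115 CPM in the other CD8 cells, with 3 genes (Cd4, Foxp3 and Zbtb7b) at 0. Most of its UMIs were of Ikzf2 and Ctla4, which activated CD8 cells also express, and Izumo1r, a folate receptor family member, stood at 22.2 and 34.1 CPM against 19.1 and 17.7 CPM. A list of NK and innate-like T cell genes stood at 109 and 95.3 CPM against 97.2 and 55.5 CPM, and without Eomes, which memory CD8 cells express, at 33.9 and 8.24 CPM against 47.1 and 26.7 CPM. UMIs of a list of 10 B and plasma cell genes, mostly Ighm, were found in 53.7% of early-activated cells of DHEA and 60.5% of CTRL, against 68.3% and 70.1% of the other CD8 cells. UMIs of 13 myeloid and dendritic genes were found in 27.6% and 29.3%, against 27.6% and 31.3%. Of the B and plasma cell genes 6 were at 0 in DHEA and 8 in CTRL early-activated cells, and of the myeloid genes 4 and 10. Shares of cells with a UMI move with depth and with free RNA, and the part of these and of other cell types in the levels below was not tested. One DHEA early-activated cell of 4302 UMIs carried 201 UMIs of S100a8 and 253 of S100a9, neutrophil genes, beside 9 score UMIs, 1 UMI of Cd8 and 1 of Cd3. It holds most of the myeloid UMIs of its group, 468 of 554.

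The share of early-activated cells differed between the libraries by less than counting error. They made up 2.06% (1.79 to 2.36) of CD8 T cells in DHEA and 1.93% (1.65 to 2.24) in CTRL, a difference of 0.133 percentage points (-0.280 to 0.543). The sign of that difference depended on the choice of cells. It was -0.141 points when every cell was first thinned to 1500 UMIs, and 0.828 points (0.420 to 1.23) when only Nr4a1, Nr4a3 and Tnfrsf9 made the score. Any score UMI at all was found in 25.9% of DHEA and 29.9% of CTRL CD8 T cells. This share moves with depth, and the CTRL cells were deeper, as given above. The part of depth in it was not tested.

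The score was a continuum with no gap at the threshold. The lowest early-activated cell had 6.49 score UMIs per 10000 and the highest cell left out had 6.47. The median early-activated cell had 9.55 in DHEA and 9.81 in CTRL, and the highest 62.3 and 75.2. Behind these scores are few molecules: 10 early-activated cells of DHEA and 1 of CTRL rested on 1 score UMI, 51 and 30 on 2, and 142 and 136 on 3 or more. A single score gene was detected in 61 DHEA and 35 CTRL cells, and 4 or more in 28 and 37.

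The 6 score genes chose the cells, so their levels are given as a description. Egr1 (ENSMUSG00000038418), an immediate early zinc finger factor, stood at 461 CPM in early-activated cells of DHEA and 504 CPM in those of CTRL, against 20.3 and 24.2 CPM in the other CD8 cells. It made up 36.3% and 36.7% of all score UMIs of the early-activated cells. Egr2 (ENSMUSG00000037868), which with Egr3 is known as a brake on T cell activation, stood at 104 and 107 CPM, against 2.86 and 2.13 CPM. Egr3 (ENSMUSG00000033730) stood at 141 and 189 CPM, against 2.99 and 3.31 CPM. These few cells held much of the Egr2 and Egr3 RNA of the CD8 T cells. They held 39.2% of Egr2 UMIs in DHEA and 46.9% in CTRL, and 45.7% and 50.2% of Egr3 UMIs. For Egr1 the shares were lower, 28.8% and 26.8%.

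By the same shares, which the choice of cells by these genes shapes, the Nr4a genes were less confined to the early-activated cells. Nr4a1 (ENSMUSG00000023034), which encodes Nur77, stood at 330 CPM in DHEA and 254 CPM in CTRL early-activated cells, against 23.1 and 20.2 CPM in the other CD8 cells. The early-activated cells held 20.2% and 18.1% of its UMIs, 16.8% and 14.1% of those of Nr4a3, and 21.5% and 27.9% of those of Tnfrsf9. Nr4a3 (ENSMUSG00000028341) stood at 98.1 and 120 CPM, against 8.64 and 12.9 CPM. Tnfrsf9 (ENSMUSG00000028965) stood at 134 and 196 CPM, against 8.72 and 8.94 CPM. Of the 6 genes, Nr4a1 was the one with the higher level in DHEA cells, and its log2 ratio of DHEA over CTRL was 0.38 (0.12 to 0.64) in early-activated cells and 0.20 (0.07 to 0.32) in the other CD8 cells.

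**Figure D1:**
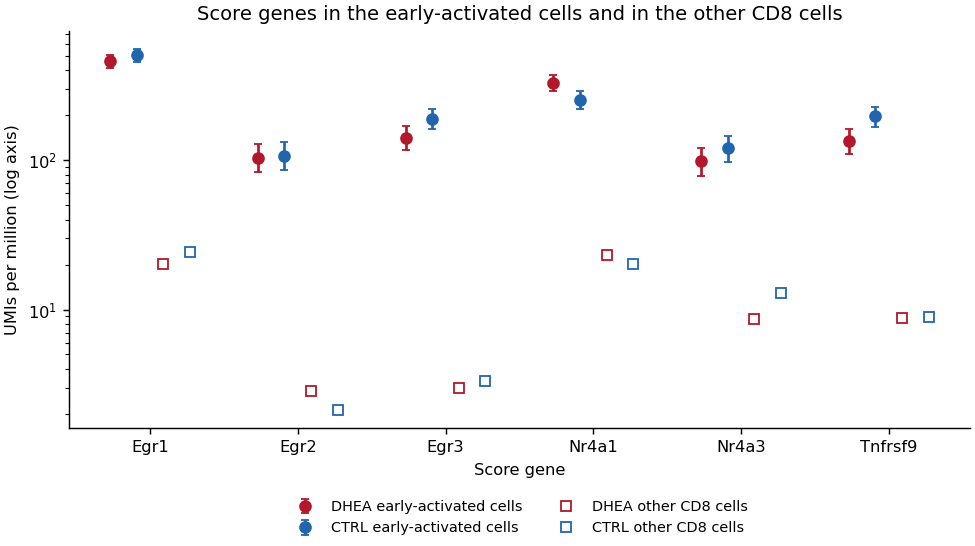
Level of each score gene in UMIs per 1000000 (log axis) in early-activated cells (filled circles, with exact 95% intervals for counting error) and other CD8 cells (open squares) of the DHEA (red) and CTRL (blue) libraries. In every gene both filled circles lie above both open squares, which the choice of cells by these genes fixes.

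The 3 Nr4a genes, of which Nr4a2 was not in the score, have in RefSeq (GRCm38.p6) promoters with repeated cyclic AMP response element (CRE) half-sites, the letters TGACG or CGTCA, which are known to bind CREB and related factors. Each promoter held 4 of them in the 250 bases before the start and none (0) of the full palindrome TGACGTCA. The 250 bases are shown because the family shares this feature, with half-sites of either strand in capitals, 5′ to 3′ on the gene's strand: Nr4a1 at chr15:101266596-101266845 (+), Nr4a2 at chr2:57124004-57124253 (-) and Nr4a3 at chr4:48045055-48045304 (+).
Nr4a1: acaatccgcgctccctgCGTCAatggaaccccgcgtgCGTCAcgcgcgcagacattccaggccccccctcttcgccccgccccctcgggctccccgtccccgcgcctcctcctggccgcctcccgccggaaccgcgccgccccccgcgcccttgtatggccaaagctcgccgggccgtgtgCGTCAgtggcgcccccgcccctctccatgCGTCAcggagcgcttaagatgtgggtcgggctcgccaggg
Nr4a2: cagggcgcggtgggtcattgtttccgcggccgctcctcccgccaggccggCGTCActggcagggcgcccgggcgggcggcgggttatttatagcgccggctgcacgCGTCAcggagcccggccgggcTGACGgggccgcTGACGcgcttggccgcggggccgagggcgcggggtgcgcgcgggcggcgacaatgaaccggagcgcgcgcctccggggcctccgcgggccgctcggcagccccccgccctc
Nr4a3: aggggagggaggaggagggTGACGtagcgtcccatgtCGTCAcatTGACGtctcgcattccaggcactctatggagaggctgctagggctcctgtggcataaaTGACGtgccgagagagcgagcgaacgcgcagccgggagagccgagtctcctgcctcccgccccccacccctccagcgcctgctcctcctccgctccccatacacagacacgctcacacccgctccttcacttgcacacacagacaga
Of 7762 windows of 300 bases (250 before to 50 after the start) of measured genes, 0.631% held 4 or more half-sites and 34.4% held at least 1. In Nr4a1 all 4 half-sites read CGTCA on the gene's strand, and Nr4a2 and Nr4a3 have both orientations. These are matches of letters and say nothing of binding in these cells. The submitters' processing notes name mm39 for the deposited counts, and no position was carried between the builds.

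Because the score sums 6 genes, each family was also read in cells chosen by the other. The highest 2% by Egr1, Egr2 and Egr3 alone were 205 DHEA and 166 CTRL cells, of which 114 and 109 were early-activated cells of the full score. In them Nr4a1 stood at 180 CPM in DHEA and 152 CPM in CTRL, against 26.0 and 22.0 CPM in all other CD8 T cells, log2 ratios of 2.79 (2.53 to 3.04) and 2.79 (2.51 to 3.05). Nr4a3 had log2 ratios of 2.58 (2.11 to 3.03) and 2.03 (1.58 to 2.45). Tnfrsf9 behaved otherwise: it stood at 10.1 CPM against 10.9 CPM in DHEA, and the log2 ratio was -0.12 (-1.34 to 0.87) on 8 UMIs, and at 37.3 against 11.7 CPM in CTRL, a log2 ratio of 1.67 (1.11 to 2.18) on 32 UMIs.

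The converse choice gave the same picture for the Egr genes. The highest 2% by Nr4a1, Nr4a3 and Tnfrsf9 were 235 DHEA and 135 CTRL cells. Egr1 was higher in them by log2 ratios of 2.61 (2.35 to 2.87) in DHEA and 2.68 (2.41 to 2.94) in CTRL. Egr2 was higher by 3.36 (2.80 to 3.89) and 4.01 (3.44 to 4.54), and Egr3 by 4.02 (3.57 to 4.44) and 3.67 (3.20 to 4.11). Within the early-activated cells of the full score, Egr1 and Nr4a1 were detected together in 34.5% in DHEA and 34.7% in CTRL. In the other CD8 cells it was 1.16% and 1.71%. Both genes chose these cells, so this contrast is a description only.

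Outside the score, few genes set the early-activated cells apart by a large factor in both libraries. Among 7580 measured genes (at least 1000 UMIs over all CD8 T cells), 24 (0.317%) were at least 2-fold higher than in the other CD8 cells in both libraries and 16 (0.211%) at least 2-fold lower. These are rules of size on cells that the score genes chose, not tests. The median log2 ratio of all measured genes was 0.03 in DHEA and 0.05 in CTRL. By gene lists that overlap, 5 of the 24 are TCR-induced regulators of transcription, 3 cytokines or chemokines, 2 feedback genes and 2 NF-kB subunits or targets, while others, such as Gfod1, Rilpl2, Fmnl3 and Plk3, are in none of these 4 lists.

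**Figure D2:**
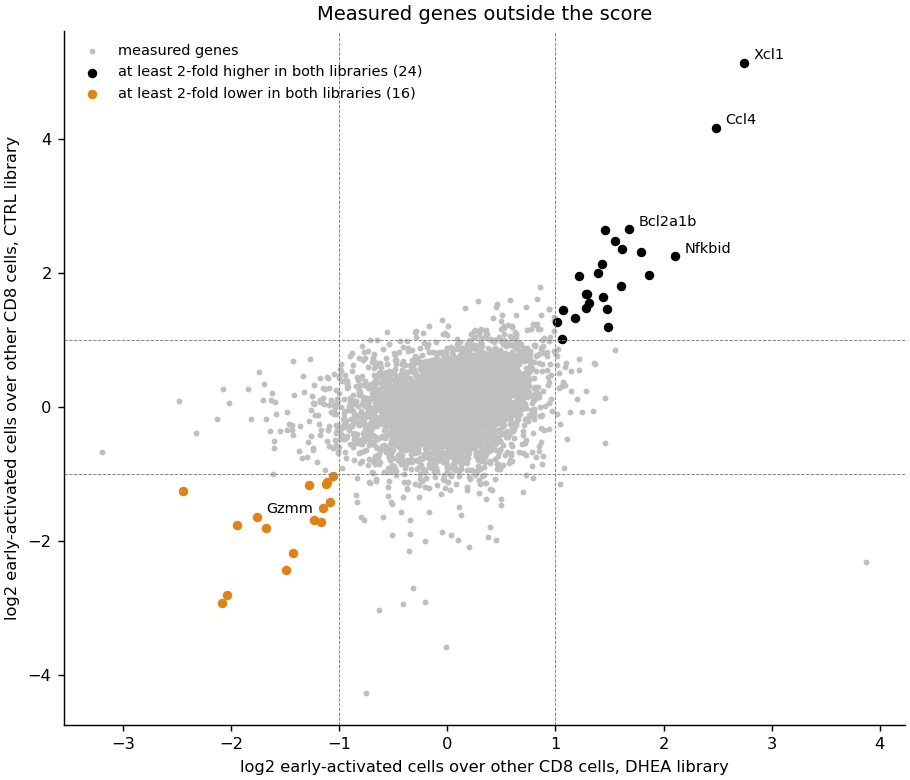
Each point is 1 of the measured genes outside the score, with its log2 ratio of early-activated over other CD8 cells in the DHEA library (horizontal) and in the CTRL library (vertical); dashed lines mark 2-fold. The 24 genes in black are at least 2-fold higher in both libraries, led by Xcl1 and Ccl4, and the 16 in orange at least 2-fold lower.

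TCR-induced regulators of transcription lay above all measured genes in median ratio. Of 14 measured genes of a list of TCR-induced regulators, 13 were higher in both libraries by any amount, as were 36.2% of all measured genes, none (0) was lower in both, and 5 passed 2-fold in both. The median log2 ratio of the list was 0.83 in DHEA and 0.97 in CTRL. Nfkbid (ENSMUSG00000036931), an atypical IkB protein that works with NF-kB in the nucleus, stood at 173 CPM in DHEA and 212 CPM in CTRL early-activated cells, against 40.0 and 44.3 CPM in the other CD8 cells, log2 ratios of 2.11 (1.86 to 2.35) and 2.26 (2.03 to 2.48). Nr4a2 (ENSMUSG00000026826), the remaining member of the Nr4a family, stood at 77.0 and 119 CPM, against 22.2 and 23.9 CPM, log2 ratios of 1.79 (1.41 to 2.15) and 2.31 (2.01 to 2.61). Nab2, an Egr-induced co-repressor that binds Egr proteins, stood at 68.9 and 76.5 CPM, against 18.9 and 19.4 CPM, log2 ratios of 1.87 and 1.98.

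Myc (ENSMUSG00000022346), which drives growth of activated T cells, stood at 194 and 185 CPM in early-activated cells of DHEA and CTRL, against 63.7 and 52.5 CPM, log2 ratios of 1.61 (1.37 to 1.83) and 1.82 (1.57 to 2.05). Id3, an inhibitor of E proteins that receptor signals induce, had log2 ratios of 1.28 and 1.70. Nfkbid and Myc were at least 2-fold higher in both libraries in 20 of 21 alternative choices of cells, scaling or filter. The same held for Xcl1 and Ccl4. The exception left out all cells with a UMI of other cell types, where 2175 genes reached the minimum count, against 7580. Egr4, the remaining Egr gene, had 4 UMIs, all in 1 DHEA cell. Irf4, which scales with receptor signal strength in CD8 T cells, was below the minimum count. It stood at 16.3 and 40.0 CPM on 14 and 34 UMIs, against 7.54 and 7.02 CPM. Its log2 ratios were 1.12 (0.23 to 1.88) in DHEA and 2.51 (1.96 to 3.02) in CTRL.

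Most genes that damp receptor signals lay within 2-fold. Of 19 measured feedback genes, 2 passed 2-fold, 15 were higher in both libraries by any amount and 2 lower in both, beside 36.2% and 25.8% of all measured genes. Those 2 were the nuclear kinase phosphatases Dusp2, at 406 and 588 CPM against 201 and 243 CPM, and Dusp5, at 75.9 and 68.2 CPM against 33.6 and 27.2 CPM. Dusp2 was at the edge of the rule in DHEA, with a log2 ratio of 1.01, passed 2-fold in 10 of 21 alternatives, and had 0.97 there with TMM scaling and 0.96 without its highest cell. Cd5, a surface brake on receptor signalling, had log2 ratios of 0.45 in DHEA and 0.63 in CTRL. The receptor signalling machinery itself was near the level of the other CD8 cells. Of its 26 genes none (0) passed 2-fold, 11 were higher and 7 lower in both libraries, and the medians were -0.00 and 0.07.

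The chemokine genes Xcl1 and Ccl4 had the highest mean log2 ratio over both libraries of all measured genes, and their RNA came from few cells. In DHEA alone Hdac9, with 3.88, was above both, on UMIs of 9 cells. Of 9 measured cytokine and chemokine genes 3 passed 2-fold, 6 were higher and 2 lower in both libraries. Of all measured genes 0.317% were at least 2-fold higher, 36.2% higher by any amount and 25.8% lower. Xcl1 (ENSMUSG00000026573), the ligand that attracts cross-presenting dendritic cells, stood at 299 CPM in DHEA and 801 CPM in CTRL early-activated cells, against 44.5 and 22.7 CPM in the other CD8 cells, log2 ratios of 2.75 (2.56 to 2.94) and 5.14 (5.004 to 5.28). Its UMIs lay in 37 early-activated cells of DHEA and 17 of CTRL. In DHEA, 8 cells with 10 or more UMIs held 66.4% of them, and in CTRL 11 such cells held 97.2%. Cells with 10 or more Xcl1 UMIs were 3.94% of early-activated cells in DHEA and 6.59% in CTRL, against 0.0933% and 0.0942% of the other CD8 cells.

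Ccl4 (ENSMUSG00000018930), a chemokine, stood at 367 and 352 CPM, against 65.4 and 19.5 CPM, log2 ratios of 2.49 (2.31 to 2.65) and 4.18 (3.98 to 4.37). It was found in 42 early-activated cells of DHEA and 14 of CTRL, of which 7 and 5 held 75.8% and 89.0% of its UMIs. Tnf was spread over more cells, 52 and 38, and stood at 103 and 105 CPM against 38.1 and 23.7 CPM, log2 ratios of 1.43 and 2.14. Ccl5, a chemokine kept ready in memory cells, was not higher: its log2 ratios were -0.21 (-0.29 to -0.13) in DHEA and -1.19 (-1.37 to -1.02) in CTRL. Il2 had 1 UMI in each group of early-activated cells.

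Activation and co-stimulatory receptors were higher in both libraries in 12 and lower in 4 of 17 measured genes. Of all measured genes 36.2% were higher and 25.8% lower. Slamf1, a homotypic receptor of activated lymphocytes, was the 1 that passed 2-fold, at 33.9 and 56.5 CPM against 11.6 and 10.1 CPM. It passed in 13 of 21 alternatives, and not without its highest cell or with a score without Tnfrsf9. In DHEA 1 cell held 10 of its 29 UMIs. Cd69, the early activation antigen that keeps cells in tissue, stood at 585 and 562 CPM, against 334 and 298 CPM, log2 ratios of 0.81 and 0.92. Cd44, a marker of antigen-experienced cells, stood at 32.7 and 27.1 CPM, against 35.4 and 28.7 CPM. Crtam, an adhesion receptor of activated CD8 cells, had log2 ratios of 1.22 and 1.96. Inhibitory receptors were sparse: 4 of 12 could be measured, none (0) passed 2-fold, and Pdcd1 had 2.33 and 1.18 CPM in early-activated cells.

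NF-kB subunits and targets were higher in both libraries in 16 of 19 genes and lower in both in none (0), with medians of 0.52 and 0.41. Rel, the subunit most tied to T cell activation, had log2 ratios of 0.99 and 1.35, and Nfkb1 0.60 and 1.20. Bcl2a1b, which encodes a pro-survival Bcl2 relative, stood at 88.7 and 125 CPM against 27.6 and 19.7 CPM, but its near-identical copies in the Bcl2a1 family can share reads, so its value is uncertain. Of 16 survival genes, 7 were higher and 4 lower in both libraries, shares near the 36.2% and 25.8% of all measured genes, with medians of 0.10 and 0.03.

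Growth genes lay within 2-fold of the other CD8 cells in at least 1 library. Of 26 measured genes of MYC-linked biosynthesis and ribosome biogenesis, none (0) passed 2-fold in both, 25 were higher in both libraries by any amount, as were 36.2% of all measured genes, none (0) was lower in both, and the medians were 0.41 in DHEA and 0.69 in CTRL. Ncl, the nucleolar protein nucleolin, stood at 696 and 800 CPM against 440 and 448 CPM, log2 ratios of 0.66 and 0.84. Srm, which makes spermidine, had log2 ratios of 0.94 and 1.46, and Odc1, the first enzyme of polyamine synthesis, 0.98 and 1.13. Glycolysis genes were higher in 11 of 15, with medians of 0.21 and 0.11. Of 13 measured cell cycle genes 5 were higher and 2 lower in both libraries, beside 36.2% and 25.8% of all measured genes. Mki67, a marker of dividing cells, had 2 UMIs in DHEA and 0 in CTRL early-activated cells.

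Of the genes that also respond to tissue dissociation, 1 passed 2-fold in both libraries. Of 19 AP-1 and other immediate early genes, 14 were higher and 3 lower in both libraries, beside 36.2% and 25.8% of all measured genes. The medians were 0.40 and 0.26, and Gadd45b was the 1 that passed 2-fold. Fos had log2 ratios of 0.75 and 0.39 and Fosb 0.92 and 0.55, while Jun had -0.10 and -0.17 and Dusp1 0.48 and 0.01. Heat shock genes were higher in 13 of 14 and lower in none (0), with medians of 0.36 and 0.61. Hspa8 stood at 1665 and 1631 CPM in early-activated cells of DHEA and CTRL, against 1186 and 976 CPM, and the stress-inducible Hspa1a at 85.2 and 25.9 CPM against 85.4 and 23.7 CPM. The part of cell handling in any of these levels was not tested.

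Genes of naive cells lay within 2-fold of the other CD8 cells, and most memory genes were lower in both libraries. Of 22 genes of naive and quiescent cells, 15 were lower in both libraries, as were 25.8% of all measured genes, 2 were higher in both, and none (0) passed 2-fold, with medians of -0.20 and -0.20. Il7r, the receptor of the survival cytokine IL-7, stood at 364 and 311 CPM in early-activated cells, against 527 and 535 CPM, log2 ratios of -0.53 and -0.79. Klf2, which keeps T cells circulating, had log2 ratios of -0.26 and -0.36. Of 20 memory and homeostatic genes, 14 were lower and 5 higher in both, with medians of -0.18 and -0.37. In each direction 1 passed 2-fold (Xcl1 higher, Gzmm lower). The list summed to 3403 and 2242 CPM against 3666 and 2144 CPM. Ly6c2 had log2 ratios of -0.50 and -0.76. Eomes, a memory and effector transcription factor, was among the 5 higher in both, at 74.7 and 87.1 CPM against 50.1 and 28.8 CPM. Early-activated cells without a Tnfrsf9 UMI had 41.5 and 16.5 CPM of Eomes, below the other CD8 cells. Those with a Tnfrsf9 UMI had 180 and 263 CPM.

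The 16 genes that were at least 2-fold lower in both libraries rested on small counts, between 1 and 30 UMIs in the early-activated cells of a library. Gzmm, a granule protease, stood at 12.8 and 5.88 CPM on 11 and 5 UMIs, against 43.6 and 18.3 CPM. Gzma, another, stood at 17.5 and 1.18 CPM on 15 and 1 UMIs, against 56.2 and 4.12 CPM. In DHEA 1 cell held 8 of those 15 UMIs, and Gzma passed the rule in 11 of 21 alternatives. Its DHEA log2 ratio of -1.68 turned to 0.53 with the highest 4% of cells, 0.17 in cells from 3000 UMIs and 0.40 with the score of Nr4a1, Nr4a3 and Tnfrsf9. Of 17 genes of the type I interferon response, 10 were lower and 4 higher in both libraries, with medians of -0.08 and -0.07. Of all measured genes 25.8% were lower and 36.2% higher.

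Several genes were higher along the score below the threshold as well as above it. Nfkbid stood at 38.2, 43.8, 55.5, 83.8 and 267 CPM in DHEA over 5 steps: cells with no score UMI, cells with a score UMI further below the threshold, the 2% of cells just under it, and the lower-scoring and the higher-scoring early-activated cells. In CTRL the same steps gave 42.2, 48.4, 53.8, 102 and 307 CPM. The step just under the threshold held 226 DHEA and 145 CTRL cells, and the last held 99 and 86. Myc took 61.4, 67.8, 90.6, 125 and 267 CPM in DHEA and 48.3, 59.1, 98.4, 114 and 245 CPM in CTRL. Xcl1 was concentrated at the top, with 168 and 438 CPM in the last 2 steps in DHEA and 125 and 1384 CPM in CTRL. Il7r ran the other way, from the first step to the last, with 538, 506, 415, 433 and 291 CPM in DHEA and 547, 512, 485, 381 and 250 CPM in CTRL.

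**Figure D3:**
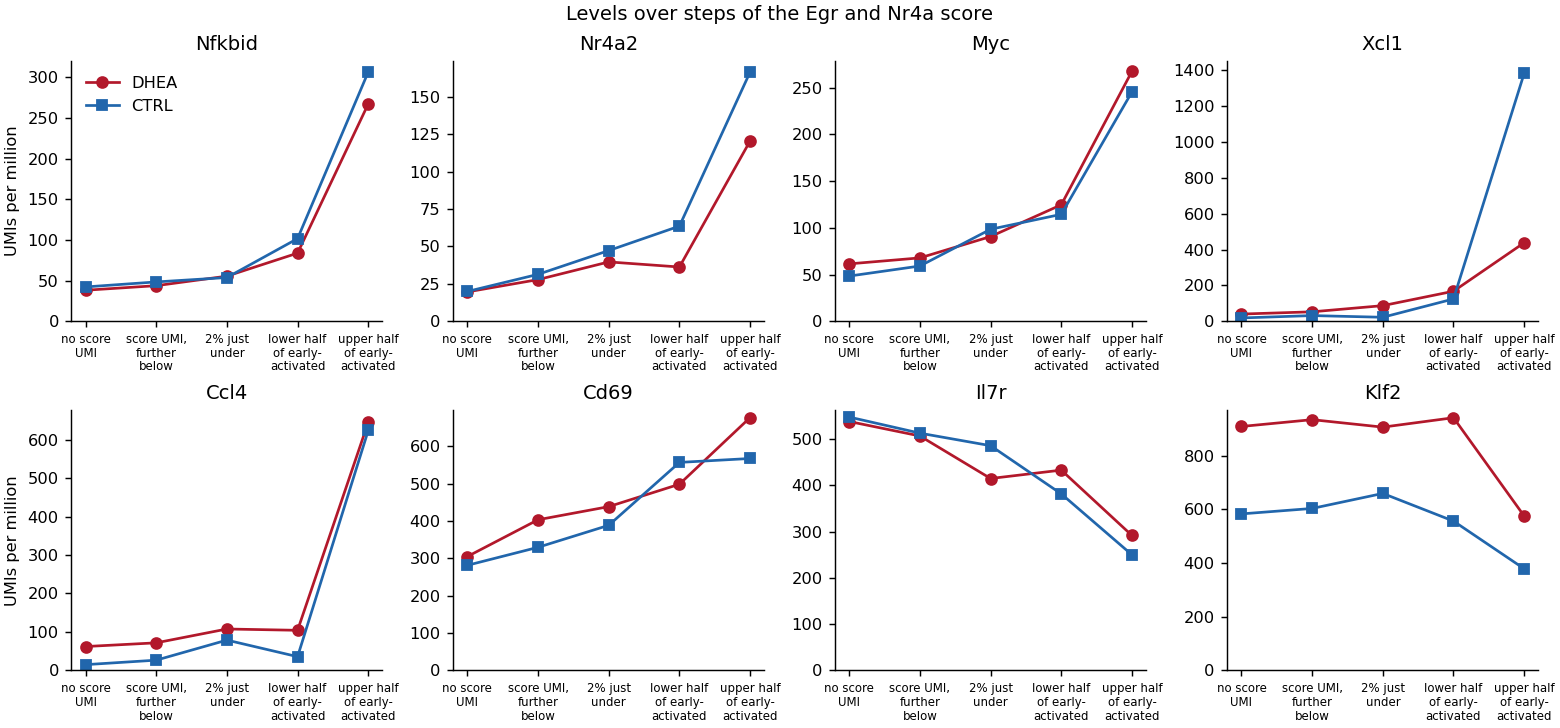
Level of 8 genes in UMIs per 1000000 over 5 steps of the score, low to high, in the DHEA (red circles) and CTRL (blue squares) libraries. Nfkbid, Nr4a2 and Myc are highest in the higher-scoring early-activated cells in both libraries, Xcl1 reaches 438 in DHEA and 1384 in CTRL, and Il7r is lowest there.

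Early-activated cells were also read apart by whether they carried a Tnfrsf9 UMI, as a description, since Tnfrsf9 helped to choose them. A Tnfrsf9 UMI was found in 45 of 203 early-activated cells of DHEA (22.2%) and 35 of 167 of CTRL (21.0%). They were deeper, with median UMIs of 4296 and 5732, against 3067.5 and 4361.5 in those without. Because the score is a sum, a cell with Tnfrsf9 UMIs needs fewer UMIs of the other 5 genes, and Egr1 stood at 185 CPM in DHEA and 148 CPM in CTRL with Tnfrsf9, against 548 and 647 CPM without. Of the 7580 measured genes outside the score, 28.2% were higher with Tnfrsf9 in both libraries by any amount and 32.2% lower.

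Several of the named genes were higher with Tnfrsf9 by large factors. Xcl1 stood at 856 CPM in DHEA and 2754 CPM in CTRL in cells with Tnfrsf9, against 123 and 16.5 CPM in cells without. All 11 CTRL early-activated cells with 10 or more Xcl1 UMIs carried Tnfrsf9, and 5 of the 8 DHEA cells did. Eomes stood at 180 and 263 CPM, against 41.5 and 16.5 CPM, and Slamf1 at 82.7 and 148 CPM, against 18.4 and 19.8 CPM. Myb, a factor of stem-like memory cells, stood at 224 and 107 CPM, against 13.8 and 36.3 CPM. Ikzf2, which encodes Helios and is induced by strong receptor signals, stood at 214 and 181 CPM, against 53.8 and 51.1 CPM. The levels with Tnfrsf9 came from few DHEA and CTRL cells. Eomes was found in 15 and 15 of them, Slamf1 in 8 and 13, Myb in 11 and 9 and Ikzf2 in 11 and 10.

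Of the 26 measured growth genes of the list above, all 26 were higher with Tnfrsf9 in both libraries. Ncl stood at 1206 CPM in DHEA and 1613 CPM in CTRL in cells with Tnfrsf9, against 535 and 473 CPM without, log2 ratios of 1.17 (0.93 to 1.41) and 1.77 (1.55 to 1.99). Odc1 stood at 131 and 172 CPM, against 35.3 and 23.1 CPM. Mif, a cytokine-like protein made by growing cells, stood at 593 and 611 CPM, against 275 and 234 CPM. Myc, which is outside that list, stood at 141 against 210 CPM in DHEA and 275 against 148 CPM in CTRL. In the other CD8 cells Ncl stood at 440 and 448 CPM.

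Of 19 AP-1 and other immediate early genes, 15 were lower with Tnfrsf9 in both libraries and 2 higher. Cells without Tnfrsf9 were chosen by Egr and Nr4a UMIs alone, which are immediate early genes too. The part of that choice in these levels was not tested. Fos stood at 160 CPM in DHEA and 94.4 CPM in CTRL in cells with Tnfrsf9, against 352 and 325 CPM without, and Ier2 at 248 and 271 CPM, against 449 and 487 CPM. Gadd45b was higher with Tnfrsf9, at 92.4 and 222 CPM against 56.8 and 51.1 CPM. Nr4a2 stood at 53.5 against 84.5 CPM in DHEA and 168 against 98.96 CPM in CTRL. Of 22 naive genes 19 were lower in both libraries and 1 higher. Il7r stood at 224 and 185 CPM, against 409 and 361 CPM. Cd69 stood at 511 and 390 CPM, against 608 and 632 CPM. Some genes split unevenly between the libraries: Crtam stood at 141 against 95.2 CPM in DHEA and 460 against 47.8 CPM in CTRL, and the granzyme Gzmb at 194 against 3.07 CPM in DHEA, with no UMI (0) in CTRL early-activated cells. Of the DHEA cells with Tnfrsf9, 3 held all 40 of those Gzmb UMIs. Whether the libraries differ in these splits was not tested.

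**Figure D4:**
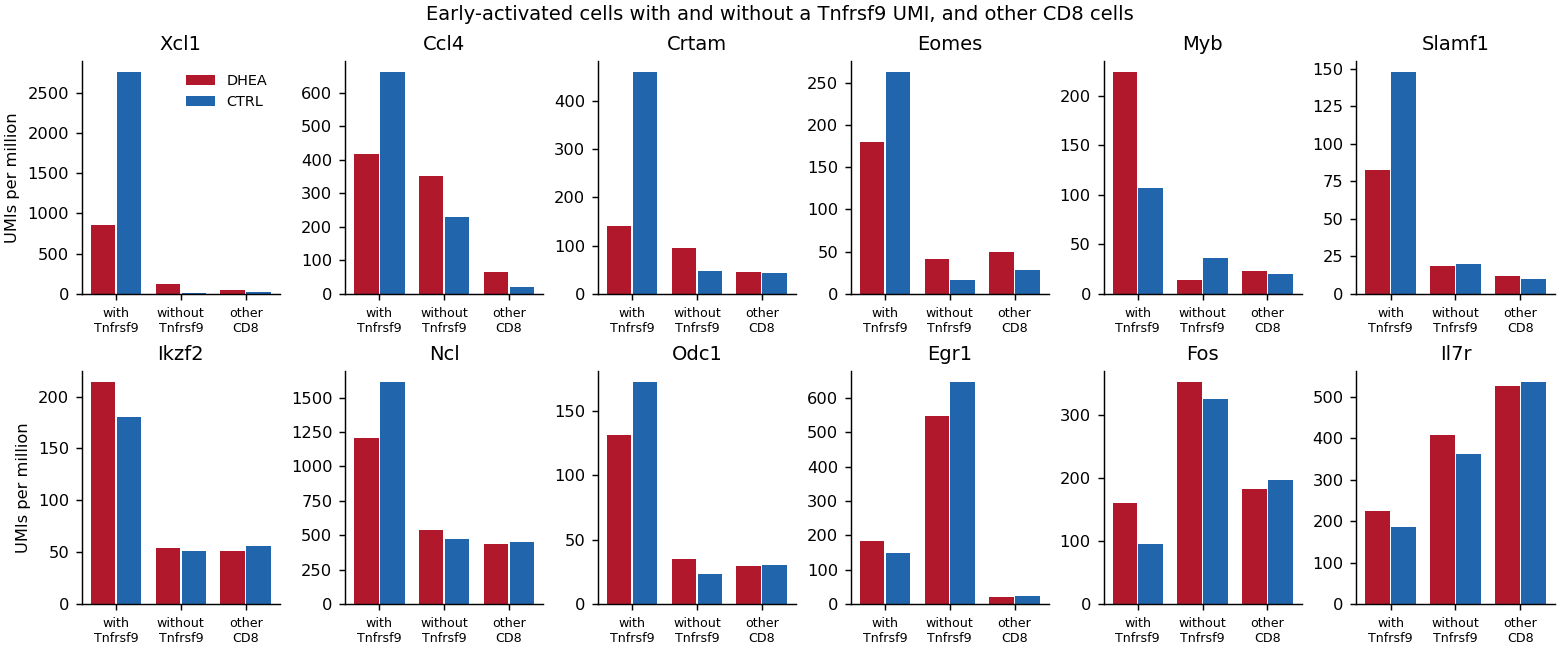
Level of 12 genes in UMIs per 1000000 in early-activated cells with a Tnfrsf9 UMI, early-activated cells without one and other CD8 cells, in the DHEA (red) and CTRL (blue) libraries; axes start at 0. Xcl1, Eomes, Ikzf2, Ncl and Odc1 are highest with Tnfrsf9 in both libraries, and Egr1 and Fos are highest in early-activated cells without it. Those cells were chosen by the Egr and Nr4a score genes alone.

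Between the libraries, the early-activated cells of DHEA had more RNA of Ccl5, Cxcr3, Ly6c2 and Hspa1a, as did the other CD8 cells of DHEA, and less Xcl1. Of 4746 genes with at least 50 UMIs over the early-activated cells, 31 (0.653%) were at least 2-fold higher in DHEA and 39 (0.822%) at least 2-fold lower. For the same genes in the other CD8 cells, which are far more numerous, 12 (0.253%) were higher and 2 (0.0421%) lower. Of 14 memory and homeostatic genes with enough UMIs, 9 were higher in DHEA by any amount, beside 45% of all 4746, 3 passed 2-fold (Ccl5, Cxcr3 and Ly6c2) and 1 was 2-fold lower (Xcl1). Of 13 heat shock genes 11 were higher and 2 passed 2-fold, Hspa1a and Hspa1b. Score genes lay within 2-fold: log2 ratios of DHEA over CTRL were -0.13 (-0.33 to 0.07) for Egr1, -0.42 (-0.78 to -0.07) for Egr3 and -0.55 (-0.91 to -0.20) for Tnfrsf9.

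Ccl5 stood at 1456 CPM in early-activated cells of DHEA and 321 CPM in those of CTRL, a log2 ratio of 2.18 (1.99 to 2.37), against 1.20 (1.18 to 1.21) in the other CD8 cells. Cxcr3, a chemokine receptor of memory and effector cells, stood at 79.4 and 20.0 CPM, a log2 ratio of 1.99 (1.21 to 2.85), against 1.24 (1.16 to 1.32). S100a6, a calcium-binding protein of experienced T cells, stood at 75.9 and 11.8 CPM, a log2 ratio of 2.69 (1.72 to 3.82), against 1.84 (1.77 to 1.92). Ccl5 was at least 2-fold higher in DHEA in all 21 alternatives run. These levels also came from limited numbers of early-activated cells. Ccl5 was found in 87 DHEA and 24 CTRL cells, of which 28 and 8 held 90.3% and 89.7% of its UMIs. Cxcr3 had 68 UMIs in 43 DHEA cells and 17 in 13 CTRL cells. S100a6 had 65 UMIs in 11 DHEA cells and 10 in 5 CTRL cells. Ly6c2 had 1.12 (0.84 to 1.41) in early-activated cells and 0.87 (0.84 to 0.90) in the other CD8 cells.

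Hspa1a stood at 85.2 CPM in DHEA and 25.9 CPM in CTRL early-activated cells, a log2 ratio of 1.72 (1.02 to 2.48), against 1.85 (1.75 to 1.94) in the other CD8 cells. Its neighbour and near-identical copy Hspa1b had 1.19 (0.80 to 1.59) and 1.73 (1.67 to 1.80), and reads can be shared between the copies. Without cells holding UMIs of other cell types the early-activated ratio of Hspa1b turned to -0.17. Median mitochondrial shares and depths of the libraries differ as given above, and their part in these levels was not tested.

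Xcl1 was lower in DHEA among early-activated cells, with a log2 ratio of -1.42 (-1.64 to -1.21), and higher in DHEA among the other CD8 cells, with 0.97 (0.87 to 1.08). Without the single cell with the most Xcl1 in each library the early-activated ratio was -1.67. More DHEA than CTRL early-activated cells carried Xcl1, 37 (18.2%) against 17 (10.2%), or 11.8% against 8.98% at 1500 UMIs per cell, and the 11 CTRL cells with 10 or more UMIs held 97.2% of the CTRL UMIs. Without the 5% of cells with the most UMIs the ratio was -0.52, and as a mean over cells -0.82. Ccl4 stood at nearly the same level in both groups of early-activated cells, 0.06 (-0.17 to 0.29), and was higher in DHEA in the other CD8 cells, 1.75 (1.64 to 1.86). Ifng had 32 UMIs in DHEA and 8 in CTRL early-activated cells, below the minimum count.

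Further genes at the ends of the ranking also rested on few UMIs or few cells. S100a9 and S100a8 led in DHEA through the 1 cell described above, with no UMI (0) in CTRL early-activated cells. Hdac9, a class II histone deacetylase, had 103 UMIs in 9 DHEA cells, 52 of them in 1 cell, and 2 UMIs in CTRL. The lowest were Sh3pxd2a on 10 and 41 UMIs (-2.05, -3.21 to -1.03), Kat6b on 15 and 54 (-1.86, -2.79 to -1.01) and Rbbp8 on 14 and 45 (-1.70, -2.68 to -0.80), then Enox2 (-1.37) and Adamts6 (-1.33). In the other CD8 cells these 5 had log2 ratios of -0.22, -0.33, -0.21, -0.32 and -0.28.

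**Figure D5:**
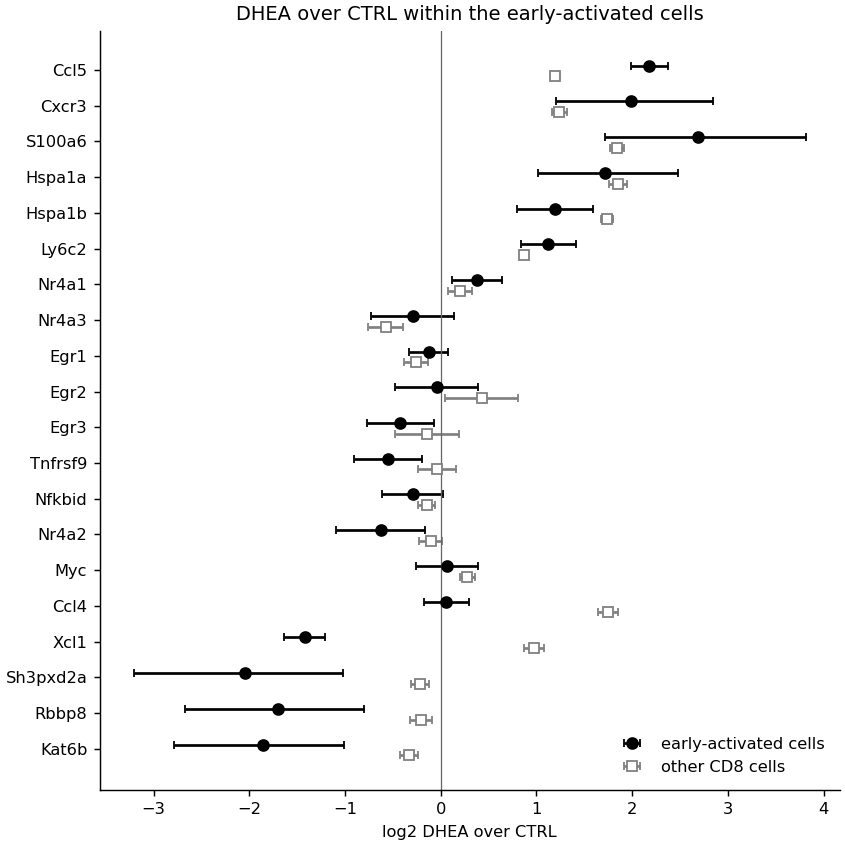
Log2 ratio of DHEA over CTRL for 20 genes in early-activated cells (filled circles) and other CD8 cells (open squares), with exact 95% intervals for counting error; 0 means equal levels. Ccl5, Cxcr3 and S100a6 lie to the right in both kinds of cell, and Xcl1 lies at -1.42 in early-activated cells and 0.97 in the other CD8 cells.

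Receptor segments were read in few early-activated cells, as this 3′ assay seldom reaches them. A Trbv segment was read in 32 of 203 early-activated cells of DHEA (15.8%) and 19 of 167 of CTRL (11.4%), against 14.8% and 16.1% of the other CD8 cells. The DHEA cells spread over 15 Trbv segments and the CTRL cells over 11 of 35. A Trav segment was read in 27 and 31 cells, over 17 and 20 segments. Of 27 segments counted per library that were read in at least 2 early-activated cells, 4 had an interval above the share in the other CD8 cells. Segments read in fewer early-activated cells were left out, which favours high shares. With so few readings an interval could hardly lie below, so this count does not show a skewed usage. A cell with several segments counts once for each. Trbv13-2 made up 18.8% (7.21 to 36.4) of the Trbv readings of DHEA early-activated cells, on 6 cells, against 6.37%, and 17.4% (4.95 to 38.8) in CTRL, on 4 cells, against 6.42%. The others were Trav9d-1 in DHEA on 2 cells, at 6.67% (0.818 to 22.1) against 0.114%, and in CTRL Trav12-3 on 3 cells, at 8.82% (1.86 to 23.7) against 1.09%, and Trav16 on 6 cells, at 17.6% (6.76 to 34.5) against 6.66%. Near-identical segments can share reads. These counts are too small to say whether clones were shared or expanded.

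The RefSeq promoter windows of the genes higher in early-activated cells were read for known motifs, on both strands. Of the 24 genes, 19 had a window, with 24 windows in all because some have several starts. The CRE half-site was in 50% of these windows, against 34.4% of the 7762 windows of measured genes. Counted by gene, it was in 47.4% of the 19, against 39.6% of measured genes with a window. The EGR site GCGNGGGCG was in 25%, against 10.9%, in Nr4a2, Dusp2, Bcl2a1b, Gadd45b, Fmnl3 and Tagap. The AP-1 site TGANTCA was in 12.5%, against 4.44%, and the NBRE site AAAGGTCA of Nr4a proteins in 0%, against 1.04%. The CArG box and the NF-kB site, read by name, were each in 4.17%, against 1.15% and 5.02%. With 24 windows, several of them from 1 gene, these shares are a description.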

How the data were processed

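Per the file headers the deposited matrices are Cell Ranger output, raw UMI counts per gene and barcode, and the submitters' processing notes name Cell Ranger 8.0.1, Seurat 4.3.0 and mm39. The counts cover 33696 genes in 2 libraries, 1 per group. For barcode filters of the authors the sources used here give nothing. From the deposited counts, UMIs were summed over early-activated cells and over the other CD8 cells of each library and scaled to 1000000 (CPM). Log2 ratios carry exact intervals from the split of both counts, shares exact Clopper-Pearson intervals. A count of 0 was put at 3 counts, and no ratio was formed where both were at or below 3. Genes needed 1000 UMIs over all CD8 T cells (early-activated over other) or 50 over early-activated cells (DHEA over CTRL). No test was run and no doublet was removed. Alternatives without cells holding other cell types' genes were tried.

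The cells and 22 gene lists were chosen with earlier results of these data known. Named genes were the 6 score genes, the 20 highest and 10 lowest by mean log2 ratio over both libraries, the 6 highest and 6 lowest DHEA over CTRL, up to 4 per list with the largest ratio, and a panel of 48. Score, immunoglobulin, receptor, haemoglobin, mitochondrial, ribosomal protein, Xist, Y-linked and unnamed genes could not be among the highest or lowest. Genes named outside this rule, such as list genes below the minimum count, markers at 0, genes of the promoter windows, receptor segments and the low-count genes of the closing part, were chosen after their values were seen. The summing and the size rule were tested on simulated counts. Tools were Python 3.11.15, numpy 2.4.6, scipy 1.17.1, pandas 2.3.3, matplotlib 3.10.9, with TMM factors from edgeR 4.0.16 in R 4.3.3.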

Additional observations from a re-analysis of the deposited data

Results flagged for a closer look

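Hdac9 and Kat6b went opposite ways in the 2 libraries. Hdac9 had a log2 ratio of early-activated over other CD8 cells of 3.88 in DHEA and -2.31 in CTRL. Kat6b, a histone acetyltransferase, had -0.98 in DHEA and 0.55 in CTRL. The difference between the libraries was not tested for either gene. Hdac9 rests on 9 DHEA and 2 CTRL early-activated cells, and 3 of the 9 held 84.5% of its UMIs.

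Barcodes that did not pass the filters for CD8 T cells, which no comparison uses, also held early-activated scores. Of 2279 such barcodes in DHEA, 187 (8.21%, 7.11 to 9.41) had a score at or above the threshold, as had 49 of 832 (5.89%, 4.39 to 7.71) in CTRL. Of these, 164 in DHEA and 23 in CTRL had under 1500 UMIs, where 1 score UMI is enough to pass.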

How the results depend on the processing

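The share difference of 0.133 percentage points was 0.754 (0.182 to 1.32) with the highest 4% of cells and 0.828 (0.420 to 1.23) with the score of Nr4a1, Nr4a3 and Tnfrsf9. The 24 higher genes numbered 56 with the highest 1%, 14 with the highest 4%, 15 with the thinned score, 13 with the Egr score, 8 without cells holding a UMI of other cell types, 299 with no minimum count and 9 with a minimum 4 times as high. The 16 lower genes numbered 60, 2 and 7 in the first 3 of these settings, 9 from 3000 UMIs, 26 with at least 2 score genes, 4 without UMIs of other cell types (9 with Ighm and Cst3 allowed), 10 without the deepest 5%, 75 and 2 with the minimum counts, and 42 without each gene's highest cell. Genes 2-fold higher in DHEA early-activated cells numbered 11 without UMIs of other cell types, 520 with no minimum and 6 with the higher one, against 31. Those lower numbered 59 with the thinned score, 72 as means over cells, 716 with no minimum and 2 with the higher one, against 39. The filter on other cell types left 44 DHEA and 31 CTRL early-activated cells. It also cut the measured genes from 7580 to 2175, and those with enough UMIs over early-activated cells from 4746 to 685. With no minimum the same numbers were 11173 and 11181, and with the higher one 3485 and 1241. The counts above are thus over unlike numbers of genes. Settings with Ighm and Cst3 allowed, with at least 3 score UMIs and without highest cells were chosen after seeing the data.

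Gzma in DHEA (main log2 ratio -1.68) was 0.53 with the highest 4%, 0.17 from 3000 UMIs and 0.40 with the Nr4a1, Nr4a3 and Tnfrsf9 score. Gzmm in CTRL was 0.44 with the thinned score. Without UMIs of other cell types, Lrrk1 in DHEA was 0.33 and the DHEA over CTRL ratio of Hspa1b was -0.17. The cause was not tested. Of all values for named genes, 4705 of early-activated over other cells and 2509 of DHEA over CTRL stayed within their error, and 735 and 221 moved. No paired analysis was possible because each group has 1 library. Few UMIs per cell limit every split.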

Other observations

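Several genes of activated T cells were too sparse for the minimum count of 1000 UMIs over all CD8 T cells, and the choice to name them here came after seeing the data. Tnfsf14, the co-stimulatory ligand LIGHT, stood at 24.5 CPM in early-activated cells of DHEA and 23.5 CPM in those of CTRL, against 5.69 and 3.99 CPM in the other CD8 cells. Il2ra, the high-affinity IL-2 receptor chain, had 9 UMIs in DHEA and 12 in CTRL, which is 10.5 and 14.1 CPM, against 1.35 and 1.51 CPM. Ccl3, a chemokine encoded beside Ccl4, stood at 28.0 and 41.2 CPM, against 6.58 and 2.44 CPM. It was found in only 8 early-activated cells of DHEA and 6 of CTRL.

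Spry1, an inhibitor of mitogen-activated kinase signals, stood at 4.67 CPM on 4 UMIs in DHEA and 20.0 CPM on 17 UMIs in CTRL, against 0.581 and 0.621 CPM. Rgs16, a brake on chemokine receptor signals, stood at 4.67 and 12.9 CPM on 4 and 11 UMIs, against 0.228 and 0.393 CPM. Cd83, a surface protein of activated lymphocytes, stood at 3.50 and 23.5 CPM on 3 and 20 UMIs, against 2.03 and 1.76 CPM. These counts are small, and whether the libraries differ in them was not tested.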
